A study of Homo sapiens with 2 samples.

Results

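Genes of heme synthesis, export and breakdown were examined in NK92, a human natural killer cell line in established culture. They comprised 9 of the 46425 genes in the count table, chosen by symbol: 7 enzymes of the synthesis pathway (ALAS1, ALAD, UROS, UROD, CPOX, PPOX and FECH), the heme exporter FLVCR1 and the heme oxygenase HMOX2. Polyadenylated RNA came from a dish exposed to 10 µg/mL of PPMX-T003, an antibody that inhibits transferrin receptor 1, for 6 h following 18 h of culture, and from a dish without antibody. Each condition had 1 library, so no difference has a replicate check and no p-value is given. The unexposed library held 46766416 counts and the PPMX-T003 library 43178462. The table calls the unexposed library 0 h although the methods describe equal culture of both dishes, and any difference in harvest time cannot be told apart from the exposure.

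Heme is an iron porphyrin that serves as the prosthetic group of cytochromes, catalase and many other proteins. Its synthesis starts in mitochondria, where ALAS1 joins glycine and succinyl-CoA in the rate-limiting step of non-erythroid cells, and heme itself represses ALAS1. ALAD, UROS and UROD act in the cytosol, CPOX and PPOX act back in mitochondria, and FECH, which carries an iron-sulfur cluster, inserts ferrous iron into protoporphyrin. FLVCR1 exports heme, and HMOX2 is the constitutive oxygenase that opens the ring and frees the iron. Transferrin receptor 1 brings in the transferrin-bound iron that most proliferating cells use for these purposes.

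All 9 genes were detected in both libraries, and none differed 2-fold. UROD and ALAS1 were higher with PPMX-T003 by more than counting error, by 0.24 and 0.15 on the log2 scale, and stayed so under each scaling, trend correction and interval tried. ALAD and CPOX were lower, at -0.16 and -0.09 on that scale, and each lost that call in 1 of the alternatives. The summed reads of the 7 enzymes did not differ beyond counting error.

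Among the cell type markers listed, those with the most reads were NK cell markers. All 10 NK cell markers were counted, with summed levels of 3860 CPM (reads scaled to a common library total) in the unexposed library and 4287 in the exposed one, and IL2RB had the most reads. Per length NKG7 was the most abundant, at 3215 and 3445 TPM. In the unexposed library KLRD1, CD7, TYROBP and FCER1G had 30.6, 6.82, 4.38 and 2.12 CPM, below the T cell marker CD28 at 48.1. The intervals of 6 NK cell markers lay above 0 and that of NCAM1, at -0.08, below. Over all tested genes these shares were 21.8% and 23.9%. The NK cell markers had a median log2 fold change of 0.16. With the trend along GC content and transcript length removed, 4 of their intervals lay above 0 and 2 below. These shares were then 18.9% and 21.2% over all tested genes with a known GC content and length. The median of the NK cell markers was then 0.05, and IL2RB went from 0.11 to -0.02. Of 8 erythroid markers, ALAS2, the erythroid isoenzyme of ALAS1, was listed at 0 in both libraries, as were SLC4A1, HBA1, HBA2, KLF1, AHSP and GATA1. The erythroid list summed to 4.02 and 3.45 CPM, all from EPOR. By counting error alone, a gene at 0 may still have been present at up to 0.0641 CPM in the unexposed library. In the exposed library this limit, set by 3 counts, was 0.0695 CPM. Of 19672 protein-coding genes, 7202 were listed at 0 in both libraries. Whether the assignment of reads to genes left some of them at 0 was not tested, so a listed 0 does not establish absence. Among T cell markers CD3D, CD8A and CD5 were at 0, and the list summed to 48.2 and 41.8 CPM, nearly all from CD28. CD28 had a log2 fold change of -0.20 (-0.29 to -0.11), and of -0.10 (-0.19 to -0.01) with the trend removed. CD3E, which was not on the list and was looked up after the values were seen, had a mean of 423 CPM over the libraries, so the list does not stand for all CD3 genes. B cell markers summed to 0.342 and 0.278 CPM, with the most reads from CD79A and MS4A1 at 0. Myeloid markers summed to 0.513 and 0.371 CPM, with the most reads from CSF1R and MPO at 0, and the 3 hepatocyte markers ALB, APOA1 and TTR were all at 0. What part the markers' differences have in the values of the heme genes was not tested.

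Promoter sequence is shown for the 5 genes whose counting interval excluded 0, so that those higher and those lower can be read side by side. Sequences of 8 of the 9 genes were matched in RefSeq (GRCh38.p14), with UROS unmatched. Each line gives the 125 bases upstream of an annotated start, 5′ to 3′ on the gene's strand. HMOX2 and ALAD each had another annotated promoter that is not shown. Capitals mark matches to 4 motifs on either strand. The GC box was searched as GGGCGG. The palindromic E-box of basic helix-loop-helix factors was searched as CACGTG. The motif of erythroid and other GATA factors was searched as AGATAA. For NRF1, whose full motif is longer, the palindromic core was searched as CGCATGCG.
ALAS1, chr3:52197958-52198082, plus strand: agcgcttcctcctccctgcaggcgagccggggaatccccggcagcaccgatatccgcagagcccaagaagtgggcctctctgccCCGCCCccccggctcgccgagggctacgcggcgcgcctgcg
UROD, chr1:45012129-45012253, plus strand: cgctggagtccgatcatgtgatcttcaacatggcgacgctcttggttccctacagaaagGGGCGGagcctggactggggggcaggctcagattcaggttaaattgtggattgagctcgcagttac
HMOX2, chr16:4474611-4474735, plus strand: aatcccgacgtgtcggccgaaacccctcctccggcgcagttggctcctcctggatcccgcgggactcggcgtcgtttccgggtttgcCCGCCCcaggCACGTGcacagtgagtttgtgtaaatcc
ALAD, chr9:113401285-113401409, minus strand: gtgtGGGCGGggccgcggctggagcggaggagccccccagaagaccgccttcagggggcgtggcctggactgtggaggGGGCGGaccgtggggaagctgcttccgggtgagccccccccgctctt
CPOX, chr3:98593612-98593736, minus strand: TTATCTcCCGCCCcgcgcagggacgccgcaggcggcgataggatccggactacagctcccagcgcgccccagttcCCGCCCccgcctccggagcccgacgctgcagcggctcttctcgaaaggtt
The GC box was common to genes of either direction. Searched over the full 300-base windows, it was in 9 of the 11 promoters of the 8 matched genes, at least 1 for each gene, and in 45.0% of the 35116 promoters of the table. The E-box was found in HMOX2 alone among the members, in the promoter shown, and in 7.26% of all promoters. The other HMOX2 promoter held none of the 4 motifs. GATA motifs were in 2 of the 11, those of CPOX and a promoter of PPOX, and in 10.3% of all promoters. The NRF1 core was in ALAS1 alone and in 2.02% of all promoters. It lay downstream of the start, in a transcribed stretch shown from 11 bases after the start (chr3:52198094-52198123, plus strand).
ALAS1, transcribed stretch: agcgcccaaggCGCATGCGcagcggtcact
No matches of different motifs overlapped in these windows. A match describes the letters only, and binding was not measured.

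Levels of different genes were compared in TPM, a level per transcript length that the authors derived and rounded to whole numbers. CPOX stood at 133 TPM in the unexposed and 120 TPM in the exposed library, and HMOX2 at 119 and 117 TPM. These were the most abundant members, at percentiles 89.5 and 88.3 of the unexposed levels of all genes tested. UROD followed with 59 and 67 TPM, ALAS1 with 47 and 51 TPM, and UROS with 34 and 33 TPM. FLVCR1 had 16 TPM in both libraries. The low end held ALAD with 13 and 12 TPM, PPOX with 12 and 11 TPM, and FECH with 9 and 8 TPM. The order was therefore the same with and without antibody. Most neighbours in it were separated by more than the Poisson error of their reads, except ALAD and PPOX in both libraries and CPOX and HMOX2 in the exposed one, where CPOX spanned 117 to 123 TPM and HMOX2 113 to 121 TPM.

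The distance between CPOX and FECH depended on the transcript length used. On the deposited TPM, CPOX stood 14.8 times above FECH in the unexposed library. With reads per kilobase of the median annotated transcript, this ratio was 1.63, and with the longest transcript, chosen after seeing the data, it was 7.53. The annotated FECH transcripts had a median length of 820 bases and a longest of 3853. For ALAD these were 643 and 3173 bases, and for PPOX 774 and 1740. Short medians raise the level per kilobase of these genes. Which transcripts NK92 expressed was not measured, so the median may not be the fitting length. The same medians entered the GC and length trend. By the median length FECH stood directly behind CPOX and HMOX2, at 36.0 CPM per kilobase beside 58.8 for CPOX and 54.5 for HMOX2. ALAD, at 29.6 on that scale, stood above UROD and UROS, both at 28.7, and ALAS1, at 22.6. With the longest transcripts PPOX was lowest, at 5.29, and FECH stood at 7.65. The TPM order below HMOX2 thus differed on both scales, on the longest-transcript scale in the place of FECH alone.

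**Figure D1:**
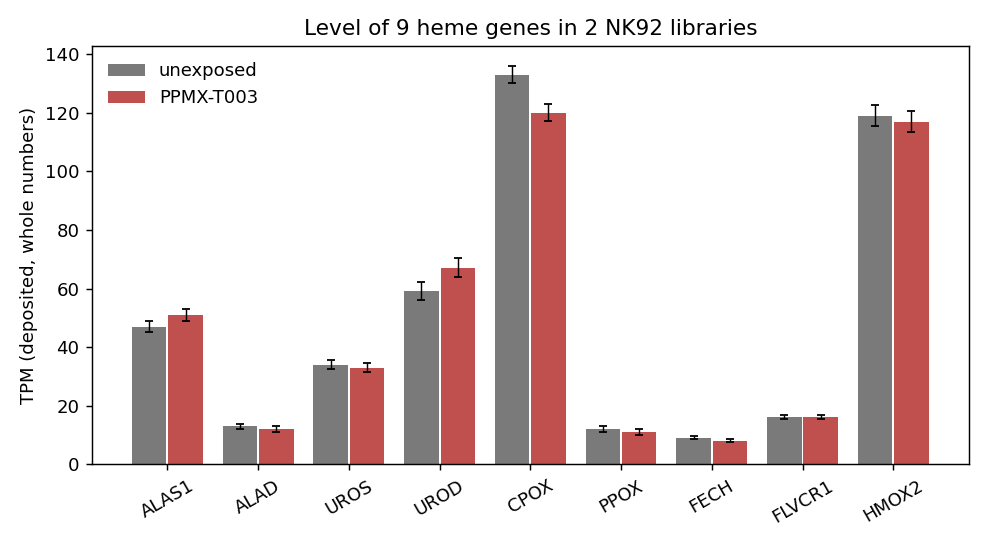
Deposited TPM of the 9 genes in the unexposed (grey) and PPMX-T003 (red) library, 1 library each, with 95% Poisson intervals of the reads carried over to TPM. CPOX and HMOX2 are highest in both libraries and FECH is lowest, at 9 and 8 TPM.

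The mitochondrial entry enzyme ALAS1 (Gene ID 211, chr3:52198083-52214327) had 2292 counts in the unexposed and 2349 in the exposed library, or 49.0 and 54.4 CPM. Its log2 fold change was 0.15 (95% counting interval 0.07 to 0.24). The interval treats the exposed library's part of the gene's reads as a binomial share (Clopper-Pearson), so differences between dishes are outside it. With the trend along GC content and transcript length removed, ALAS1 stood at 0.14. The CPM of ALAS1 was thus 11.2% higher in the exposed library. In these bulk libraries, a change in RNA per cell and a change in the share of cells expressing a gene cannot be told apart.

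In the cytosolic steps the genes went different ways. ALAD (Gene ID 210, chr9:113386312-113401284), which condenses aminolevulinic acid to porphobilinogen, had 890 and 735 counts, or 19.0 and 17.0 CPM. It was lower with PPMX-T003 by a log2 fold change of -0.16 (-0.30 to -0.02), and at -0.26 with the GC and length trend removed. With a 99% interval in place of 95%, the ALAD interval held 0. UROS (Gene ID 7390, chr10:125784980-125823258), which closes the porphyrin ring, had 1634 and 1593 counts, or 34.9 and 36.9 CPM. Its log2 fold change of 0.08 (-0.02 to 0.18) was within counting error. UROD (Gene ID 7389, chr1:45012254-45015575), which decarboxylates that ring, had 1479 and 1609 counts, or 31.6 and 37.3 CPM. Its log2 fold change of 0.24 (0.14 to 0.34) was the highest of the 9. It was 0.17 with the trend removed and 0.12 with the trend of the longest transcripts removed, a setting chosen after seeing the data. UROD was also higher in the deposited TPM and FPKM, which rest on the same reads.

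None of the last mitochondrial enzymes was higher with PPMX-T003. CPOX (Gene ID 1371, chr3:98570488-98593611), the oxidative decarboxylase of coproporphyrinogen, had 7599 and 6582 counts, or 162 and 153 CPM. Its log2 fold change was -0.09 (-0.14 to -0.04), the narrowest interval of the list because it had the most reads. With the trend removed CPOX stood at -0.04, with an interval from -0.09 to 0.00 that held 0. CPOX shares up to 105 exonic bases on the same strand with another protein-coding gene model, AC021660.3, and reads there cannot be assigned by strand. PPOX (Gene ID 5498, chr1:161165728-161178013), which makes protoporphyrin, had 431 and 397 counts, or 9.21 and 9.20 CPM, and a log2 fold change of 0.00 (-0.20 to 0.20). It had the fewest reads of the 9, so a log2 difference below about 0.20 was not detectable at this depth. PPOX also shares up to 572 exonic bases with B4GALT3 on the opposite strand, which had 2984 and 2806 counts, and whether the counting used strand is not given in the sources used here. FECH (Gene ID 2235, chr18:57544377-57586702) had 1379 and 1182 counts, or 29.5 and 27.4 CPM. Its log2 fold change was -0.10 (-0.22 to 0.01), within counting error, and its interval lay below 0 with median-of-ratios scaling and with the GC and length trend removed. With the trend of the longest transcripts removed, FECH stood at -0.05 (-0.17 to 0.06).

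Export and breakdown showed no difference that held across the alternatives. FLVCR1 (Gene ID 28982, chr1:212858275-212899363) had 1971 and 1885 counts, or 42.1 and 43.7 CPM, and a log2 fold change of 0.05 (-0.04 to 0.14). Its transcripts had the lowest GC content of the 9, 44.0%, and with the trend removed it stood at 0.14 with an interval from 0.05 to 0.23. HMOX2 (Gene ID 3163, chr16:4474736-4510347) had 4138 and 3990 counts, or 88.4 and 92.5 CPM. Its log2 fold change of 0.06 (0.00 to 0.13) had a lower bound of 0.0016. The HMOX2 interval held 0 with library size or median-of-ratios scaling, with a 99% interval and with either trend correction, and its TPM was lower with PPMX-T003. HMOX2 shares up to 158 exonic bases with NMRAL1 on the opposite strand, which had a log2 fold change of 0.19 (0.09 to 0.28).

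**Figure D2:**
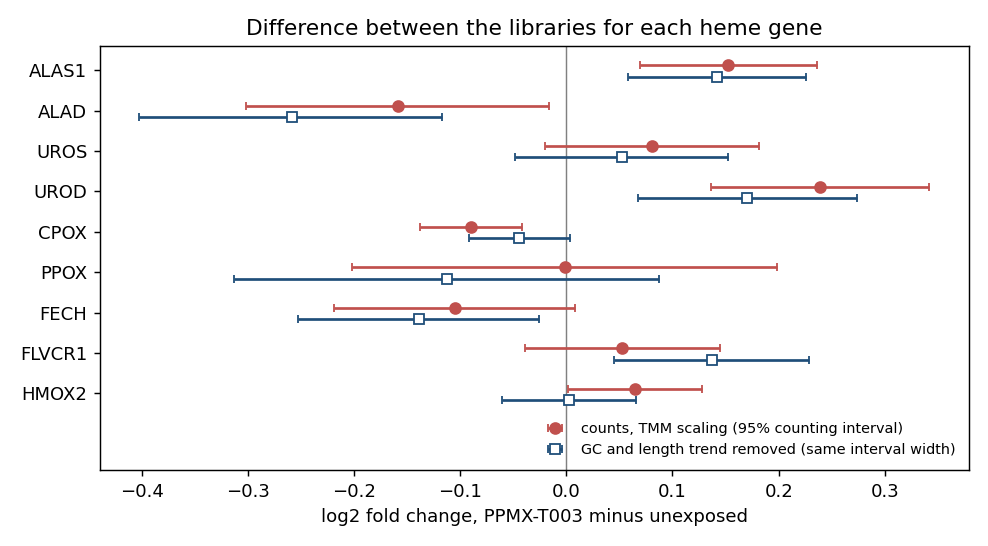
Log2 fold change of each gene, PPMX-T003 minus unexposed, with the 95% counting interval. Filled circles are from counts with TMM scaling (a trimmed mean of log ratios) and open squares have the trend along GC content and length removed. UROD and ALAS1 lie above 0 and ALAD below 0 on both.

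In all, 3 of the 9 intervals lay above 0 and 2 below. Of the 13665 genes tested, each with 20 or more reads in both libraries together, 21.8% had an interval above 0 and 23.9% below. With so few members, 3 and 2 are close to these shares. The shares were not matched for reads, and genes with fewer reads than the members have wider intervals. None of the 9 was at least 2-fold higher, as 1.27% of the tested genes were, and none at least 2-fold lower, as 1.38% were. Those shares rest mostly on genes with few reads: of the 10419 genes with at least 200 summed counts, 13 were higher and 8 lower by 2-fold, and each member had at least 828. A positive fold change was found for 5 members and a negative one for 4. PPOX turned positive with upper-quartile scaling, UROS and HMOX2 turned negative on the deposited TPM, where 2 members were higher and 6 lower, and HMOX2 did so with the longest-transcript trend removed, where 4 were higher and 5 lower. The median log2 fold change of the 9 was 0.05, beside 0.00 over all tested genes. It was 0.0027 with the GC and length trend removed and turned to -0.04 on the deposited TPM. The median size of the fold changes was 0.09 in the list and 0.14 over all tested genes. All 9 lay inside the central 95% of genes in the same decile of mean level. UROD came nearest to that edge, at 0.24 in a decile whose central range ran from -0.36 to 0.29.

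**Figure D3:**
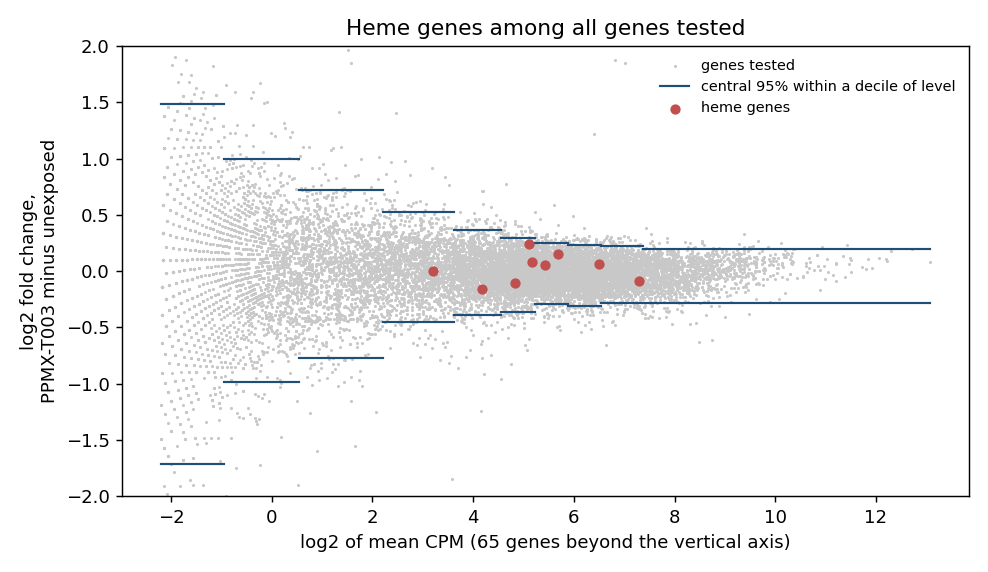
Log2 fold change against the log2 of mean CPM for all genes tested (grey), with the 9 heme genes (red) and the central 95% within each decile of genes by level (blue lines). The heme genes lie between -0.16 and 0.24, inside these lines.

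The 7 enzymes together took 15704 counts in the unexposed and 14447 in the exposed library, or 336 and 335 CPM. These sums cover the listed enzymes and not every step of the pathway. The log2 ratio of these sums was 0.00 (-0.04 to 0.03). The makeup of this sum differed slightly between the libraries. CPOX held 48.4% of the enzyme reads without antibody (exact binomial interval 47.6 to 49.2) and 45.6% with it (44.7 to 46.4). UROD went from 9.42% (8.97 to 9.89) to 11.1% (10.6 to 11.7), and ALAS1 from 14.6% (14.0 to 15.2) to 16.3% (15.7 to 16.9). For these 3 enzymes the intervals of the libraries did not overlap. Those of ALAD, UROS, PPOX and FECH did. The shares are parts of a whole, so a lower share of CPOX goes with higher shares of other enzymes. By fold change, a different measure, differences beyond counting error were common. Of all tested genes, 21.8% had a fold change interval above 0 and 23.9% below.

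Fold changes over the whole table moved with the GC content of transcripts, and this was set beside each member. The median log2 fold change ran from -0.13 in the lowest GC decile of the tested genes to 0.12 in the highest. ALAS1 (52.3% GC) and UROD (55.4%) were in a decile with a median of 0.04 and stood above it. ALAD (56.4%) and HMOX2 (56.6%) shared a decile with a median of 0.07, which is the level of HMOX2, whereas ALAD was on the other side of 0. CPOX (47.1%) was in a decile with a median of -0.02, UROS (51.4%) and FECH (50.2%) in one with 0.02, PPOX (58.5%) in one with 0.10 and FLVCR1 in one with -0.07. With the trend removed 3 intervals again lay above 0 and 2 below, beside 18.9% and 21.2% of the 12092 tested genes with a known GC content and length. ALAS1, UROD and ALAD kept their calls, FLVCR1 took the place of HMOX2 above 0, and FECH that of CPOX below. With the trend of the longest transcripts removed, the CPOX interval lay below 0 and that of FECH held 0. What part base composition has in these differences was not tested.

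Transport of porphyrins, heme and mitochondrial iron was covered by a list of 13 genes, 11 of which were tested. Their intervals lay above 0 in 4 and below 0 in 2, beside 21.8% and 23.9% of all tested genes, with a median log2 fold change of 0.03. SLC25A39, the mitochondrial glutathione carrier, had the most reads of the list, with 8508 and 8723 counts and a log2 fold change of 0.15 (0.11 to 0.20), and stood at 0.01 with the GC and length trend removed. SLC25A28 (mitoferrin-2), which brings iron into mitochondria, had 927 and 968 counts and a log2 fold change of 0.18 (0.05 to 0.31). SLC25A38, the mitochondrial glycine carrier, had 1753 and 1785 counts and a value of 0.14 (0.05 to 0.24). The heme-binding proteins PGRMC1 and PGRMC2 had log2 fold changes of 0.03 (-0.04 to 0.10) and -0.12 (-0.21 to -0.03). With the trend removed the intervals of PGRMC2, at -0.02, and SLC25A28, at 0.11, held 0, PGRMC1 stood at 0.09 (0.02 to 0.16), and the list had 3 intervals above 0 and 0 below, beside 18.9% and 21.2% of all tested genes. FLVCR2 had 27 and 47 counts and a log2 fold change of 0.87 (0.20 to 1.66). It had the largest value of the list on the fewest reads but those of ABCB6. ABCG2 and TMEM14C were listed at 0 in both libraries.

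Among 13 genes that control ALAS1, by transcription or by proteolysis of the enzyme in mitochondria, 12 were tested. Intervals lay above 0 in 4 and below 0 in 3, near the 21.8% and 23.9% of all tested genes, with a median of -0.02. FOXO1, a transcription factor that acts on ALAS1 in liver, had 73 and 119 counts and a log2 fold change of 0.80 (0.39 to 1.26). NCOR1, a corepressor, had 6704 and 5182 counts and a value of -0.25 (-0.31 to -0.20), and the coactivator PPARGC1B had 2811 and 2227 counts and a value of -0.22 (-0.30 to -0.14). These 3 kept their sign with the GC and length trend removed, at 0.89, -0.22 and -0.28. The mitochondrial protease LONP1 stood at 0.13 (0.09 to 0.18), the coactivator PPRC1 at 0.10 (0.05 to 0.16) and the deacetylase HDAC3 at 0.05 (-0.01 to 0.10). With the trend removed the LONP1 interval held 0, at 0.04 (0.00 to 0.09), and the list had 2 intervals above 0 and 2 below, near the shares of 18.9% and 21.2% over all tested genes. PPARGC1A, the coactivator that induces ALAS1 in fasted liver, was listed at 0 in both libraries.

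Heme sensing and breakdown beyond HMOX2 had 13 listed genes and 10 tested, with 1 interval above 0 and 3 below, beside 21.8% and 23.9% of all tested genes, and a median of 0.01. The inducible oxygenase HMOX1 was listed at 0 in both libraries, so HMOX2 was the heme oxygenase with reads. BLVRA, which reduces biliverdin, and HEBP1 were also listed at 0. BACH1, the heme-binding repressor of HMOX1, had 1277 and 951 counts and a log2 fold change of -0.31 (-0.43 to -0.19). Its partner MAFG had 1398 and 1085 counts and a value of -0.25 (-0.36 to -0.13). KEAP1 had 7870 and 8185 counts and a value of 0.17 (0.13 to 0.22), and its target NFE2L2 stood at 0.03 (-0.04 to 0.10). POR, the reductase that passes electrons to heme oxygenases, had 2264 and 1856 counts and a value of -0.17 (-0.26 to -0.08). EIF2AK1, the heme-regulated kinase of translation initiation, had a value of 0.00 (-0.05 to 0.05). With the trend removed BACH1 stood at -0.29, MAFG at -0.31, POR at -0.29 and KEAP1 at 0.04 with an interval that held 0, and the list had 0 intervals above 0, 4 below and a median of -0.07. Over all tested genes these shares were 18.9% and 21.2% with the trend removed.

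The supply of succinyl-CoA and glycine to ALAS1 was covered by 9 genes, of which 8 were tested, with 3 intervals above 0 and 2 below, beside 21.8% and 23.9% of all tested genes, and a median of -0.02. SHMT2, which makes glycine in mitochondria, had the most reads, with 12652 and 11457 counts and a log2 fold change of -0.03 (-0.06 to 0.01). SHMT1, its cytosolic relative, stood at 0.15 (0.05 to 0.25). Of the enzymes around succinyl-CoA, OGDH stood at 0.11 (0.05 to 0.17), DLD at -0.08 (-0.14 to -0.03) and SUCLG1 at -0.02 (-0.07 to 0.04). With the trend removed DLD turned to 0.01 (-0.04 to 0.06), SHMT2 stood at -0.14 (-0.18 to -0.11), and the list had 2 intervals above 0 and 1 below (18.9% and 21.2% of all tested genes). The glycine transporter SLC6A9 was listed at 0 in both libraries.

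Heme proteins, the enzymes that make heme a or attach heme c, and CYBC1, a chaperone of the NADPH oxidase cytochrome that is not itself a heme protein, formed a list of 23 genes and 14 tested. Intervals lay above 0 in 4 and below 0 in 5, beside 21.8% and 23.9% of all tested genes, with a median of 0.01. CYCS (cytochrome c) had 20727 and 18613 counts and a log2 fold change of -0.04 (-0.07 to -0.01). CYP51A1, a heme enzyme of cholesterol synthesis, had 4897 and 3754 counts and a value of -0.27 (-0.33 to -0.20). CYBC1 stood at 0.20 (0.13 to 0.27) and CYBA, a subunit of the NADPH oxidase cytochrome, at 0.18 (0.13 to 0.23), and with the trend removed they stood at 0.05 and 0.02, both with intervals that held 0. CYP51A1 then stood at -0.19, CYCS at -0.01 with an interval that held 0, and the list had 2 intervals above 0 and 3 below, near the 18.9% and 21.2% of all tested genes. SDHD and CYB5B had values of 0.04 (-0.01 to 0.08) and -0.02 (-0.07 to 0.02). CYB5A, CYB561, GUCY1A1, GUCY1B1, PTGS2, IDO1, TDO2 and CYGB were listed at 0 in both libraries. No tested gene of the members or of these 5 further lists reached 2-fold. TFRC, which encodes the receptor that the antibody binds, had 19063 and 18223 counts and a log2 fold change of 0.05 (0.02 to 0.08), and stood at 0.17 (0.14 to 0.20) with the trend removed.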

How the data were processed

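RNA was sequenced from 2 dishes of NK92 cells as stranded, polyadenylated libraries. According to the methods and the submitters' processing notes, the authors used Trimmomatic 0.38, HISAT2 2.2.0, StringTie 2.1.3b and edgeR 3.17 with the build hg38. StringTie divides shared reads between overlapping genes by an estimate. The authors deposited whole-number counts, written with commas between groups of digits, which were removed. The deposited TPM and FPKM were rounded by the authors and treated as a score.

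Scaling by TMM trimmed 30% of log ratios and 5% of mean levels. Fold changes were differences of log2 CPM, a prior count of 2 having been added. Python 3.11.15 was used, with the packages statsmodels 0.14.6, scipy 1.17.1, pandas 2.3.3, numpy 2.4.6 and matplotlib 3.10.9. Genes with at least 20 summed counts were tested. Intervals and floors cover counting error only. Whether an interval excludes 0 depends on the reads of a gene. The shares over all tested genes were not matched for reads to any list. GC content and length were medians over protein-coding transcripts of GENCODE release 29, known for 88.5% of the tested genes and all 9 members, and their trend was estimated by robust regression over 9926 genes of 200 or more summed counts. The scripts were tested on simulated data.

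Some of the cell type markers chosen are not reported here. The 9 members and the further lists were chosen with earlier results of these data known. Of each further list, the 4 genes with the most reads and every gene at 0 in both libraries were named. Among genes whose interval excluded 0, the 3 whose bound nearest to 0 lay farthest from it were also named. Alternatives were other scalings, prior counts of 0.5 and 5, the deposited TPM and FPKM with 1 added, other filters and thresholds, a 99% interval, trend removal, transcript lengths, the mean and the 7 enzymes alone.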

Additional observations from a re-analysis of the deposited data

How the results depend on the processing

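Of 81 values of single members under alternatives, 74 stayed within the counting interval of the main value. The exceptions include HMOX2, whose log2 fold change turned from 0.06 to -0.0242 on the deposited TPM and to -0.0248 with the trend of the longest transcripts removed. The cause was not tested. The list's median of 0.05 became 0.0027 with the GC and length trend removed, -0.0418 on TPM, 0 on FPKM, -0.0248 with the longest-transcript trend removed and -0.0013 for the 7 enzymes alone, the last 2 settings being chosen after seeing the data. TPM and FPKM are whole numbers, and what part rounding has in these shifts was not tested. A 99% interval left 1 member below 0. The number of genes at least 2-fold lower was 188 and became 286 on TPM. With genes of at least 1 count 1448 were higher and 1033 lower, with at least 200 counts 13 and 8, and at 1.5-fold 538 and 525, beside 173 higher in the main setting. The ratio of CPOX to FECH of 14.8 became 1.63 with median and 7.53 with longest transcript lengths. PPOX changed sign, to 0.01, with upper-quartile scaling. It stood at -0.11 with the GC and length trend removed, and at -0.12 both with the longest-transcript trend removed and on the deposited TPM. No paired analysis was possible because the study sequenced 1 dish per condition.

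Depth limits PPOX most, whose interval spans -0.20 to 0.20. Differences between dishes could not be estimated.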
